A study of Mus musculus with 6 samples.

Results

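Rab proteins are small GTPases of the Ras superfamily that mark the membranes of the secretory and endocytic pathways. Each cycles between a GDP-bound form, held in the cytosol by a GDP-dissociation inhibitor, and a GTP-bound form that sits on a membrane through prenyl groups and recruits effectors such as tethers and motors. In oocytes these proteins take part in the traffic of cortical granules, the secretory granules whose release after fertilization hardens the zona pellucida, and in the movement of vesicles that serve the spindle and the cell surface.

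The Rab genes were taken as the protein-coding genes of the count table whose symbol is Rab, a number and at most 1 further letter, with 1 such gene left out of the set and not reported here. This gave 58 of the 54532 genes in the table. They were measured by RNA sequencing in 6 libraries of mouse oocytes, 3 labelled control and 3 labelled AMH. AMH, anti-Müllerian hormone, is a TGF-beta family hormone made by granulosa cells, the somatic cells around the oocyte. All mice were C57BL/6J and were 6 to 7 weeks old. For the AMH group, 300 ng of recombinant mouse AMH made in E. coli was injected daily into the peritoneal cavity from day 21 of age. How many oocytes went into a library, whether they were freed of somatic cells and whether controls were injected are not stated in the labels. Nor do they tie libraries to animals, so the p-values rest on a spread between libraries that may be only technical.

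Count totals were 66392859 to 72109080 per library. The oocyte markers Gdf9 and Bmp15 were abundant in every library, at 5457 CPM (counts scaled to library size) or more for Gdf9. Summed CPM over 10 oocyte-specific genes was 14140 to 17610 in controls, 8167 and 8003 in AMH 1 and 2, and 14220 in AMH 3. Markers of other cells were present too. Over 10 cumulus and granulosa genes the sum was 403, 252 and 2358 CPM in controls 1, 2 and 3 and 1935 to 2382 CPM in AMH libraries, so control 3 lay within the AMH range. Of these 10 genes 8 were lowest in control 2 and highest in control 3 among controls, while Cyp19a1 was lower in every AMH library than in any control. Sums for macrophage and leukocyte (4.74 to 20.4 against 50.4 to 75.0 CPM), red blood cell (1.11 to 5.64 against 22.8 to 357 CPM) and oviduct and cilia genes (23.6 to 113 against 110 to 575 CPM) had higher AMH means as well. Theca and stroma genes summed to 12.3 to 60.2 against 48.1 to 139 CPM, and endothelial genes to 183 to 222 against 105 to 177 CPM. The endothelial sum was mostly Pecam1, at 145 to 187 against 87.5 to 144 CPM. Cdh5, of the same list, was higher in every AMH library, at 0.265 to 1.59 against 1.74 to 2.64 CPM. Within these lists Emcn, an endothelial marker, was at 0 in all libraries, and Cyp17a1, a theca marker, was at 0 in 4 of them. Most of the macrophage and leukocyte sum in AMH libraries was Lyz2, at 29.8 to 51.4 CPM. Ptprc, of that list, had 0.379 to 2.34 CPM in controls and 0.580 to 1.70 CPM in AMH libraries. Its log2 fold change was -0.66, while the other 5 genes of the list were positive. In pooled material of this kind, a smaller share of cells of a type and less RNA per cell cannot be told apart.

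The abundant Rab transcripts belonged to late endosomes, granules, the Golgi and recycling. Per gene length, as FPKM (fragments scaled to gene length and library size, the authors' values), Rab7 was highest at 129 ± 22.2, followed by Rab3d at 127 ± 35.5, Rab2a at 93.2 ± 7.25, Rab10 at 79.4 ± 11.3 and Rab6a at 59.6 ± 11.5 (mean ± SD over all 6 libraries). These SDs include the difference between groups, and the order of Rab7 and Rab3d depended on the group. Mean FPKM in controls was 147 for Rab7 and 155 for Rab3d, and in AMH libraries 111 and 98.9. In all, 10 members had a mean above 20 FPKM, 28 lay between 1 and 20, and 20 lay under 1. The lowest was Rab39, with 0 counts in 3 of 6 libraries and a mean of 0.0127 FPKM. A filter on low counts kept 55 members and left out Rab17, Rab39 and Rab42, none above 0.407 CPM in any library.

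No member passed the test of AMH against control. With edgeR's quasi-likelihood test, 0 of 55 members and 0.0% of all 18868 tested genes were called at an adjusted p of 0.05, with a lowest adjusted p of 0.116 among members. At an unadjusted p under 0.05, 19 of 55 members had a higher AMH value, against 20.2% of all genes. A lower one was found in 9 of 55, against 17.3%. DESeq2 called 15 of 55 members higher, against 16.3% of all genes, and 3 of 55 lower, against 7.78%. Limma-voom called 0. With sample quality weights limma-voom called 26 of 55 higher, against 39.1%, and 17 of 55 lower, against 35.8%. Without control 3 edgeR called 22 of 56 members higher, against 26.8% of all genes, and 5 lower, against 11.2%. Without AMH 3 it called 0 of 56 higher, against 1.45%, and 4 of 56 lower, against 6.73%. Without both of these libraries it called 21 of 56 higher, against 29.4%, and 11 of 56 lower, against 21.6%. In each of these settings the members' shares can be read only beside those of all genes. All differences below are therefore values relative to TMM scaling, which centres the median of all tested genes at -0.01 log2 units. That median was 0.26 with library size alone and 0.74 when libraries were scaled to the oocyte-specific genes. Values under those scalings are to be read beside these medians. Scaling to the oocyte-specific genes used their summed counts, most of them from Gdf9. In control 1 Gdf9 had 11310 of the 16380 CPM of that list, and in AMH 1 it had 5542 of 8167.

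**Figure D1:**
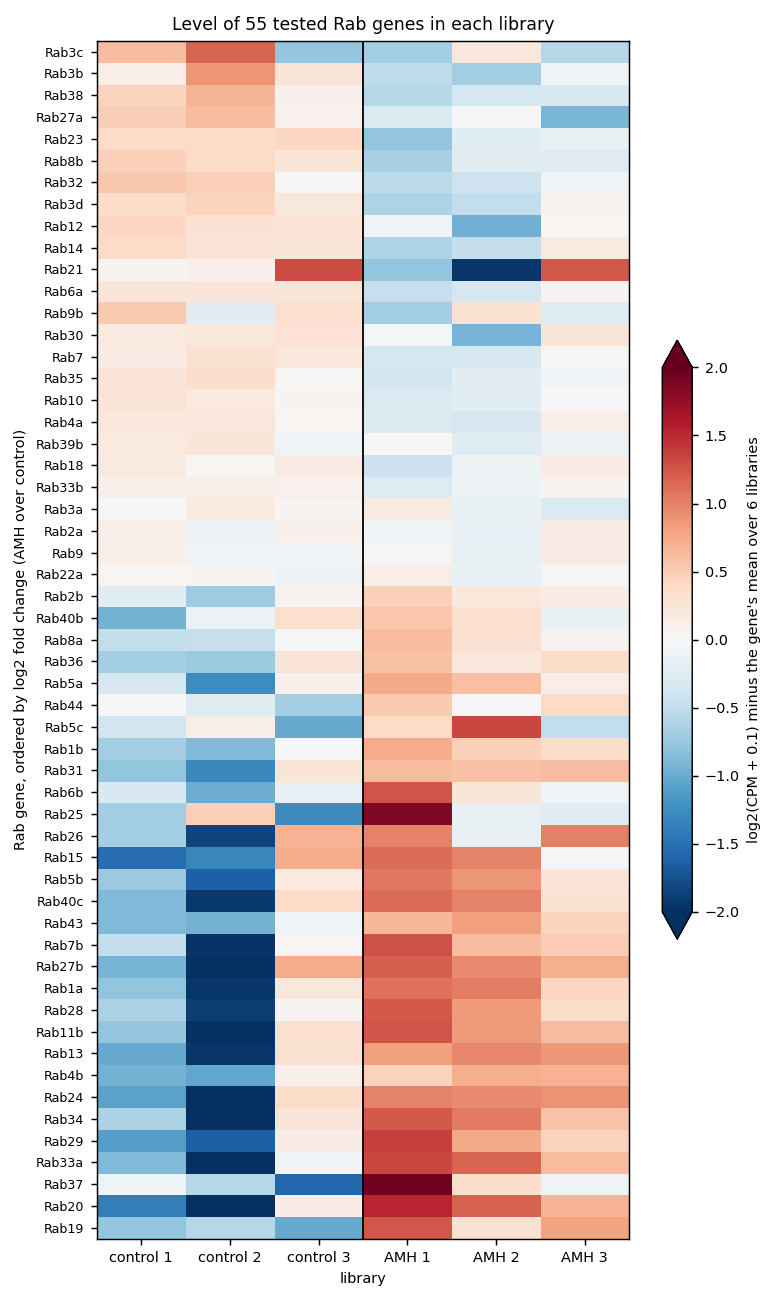
Each row is a tested Rab gene, each column a library, and colour gives log2(CPM + 0.1) minus the gene's mean over the 6 libraries, capped at 2 units on either side. Genes are ordered by the log2 fold change from -1.09 (Rab3c) to 2.28 (Rab19), and in 23 of the 32 rows with a positive value control 2 is the lowest control.

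Abundant members mostly had lower mean values in AMH libraries, and less abundant members mostly had higher ones. Over all 55, 32 had a log2 fold change above 0, against 49.7% of all tested genes, and 23 below 0, against 50.3%. Of the 10 members above 20 FPKM, 9 had a negative log2 fold change with TMM, with a median of -0.45. When libraries were scaled to the oocyte-specific genes, 9 of 10 were positive. Their median was then 0.26, still under the 0.74 of all tested genes. Among all tested genes above 20 FPKM, 73.5% were negative with TMM. In 7 of these 10 members every AMH library was below every control, against 49.1% of genes of that level. Of the 45 tested members at or below 20 FPKM, 31 were positive, against 53.2% of all such genes, and their median was 0.96 with TMM and 0.72 to 1.78 under the other scalings. Across the 55 members the Spearman correlation between log2 fold change and mean FPKM was -0.34, and across all 18868 tested genes it was -0.15; both are descriptions of genes that share the same 6 libraries. In TMM-scaled CPM, 21 of the 55 members lay higher in every AMH library than in any control, against 26.9% of all tested genes. In 14 of the 55 every AMH library lay lower, against 23.3%. The 14 became 7 with library size alone and 0 when scaled to the oocyte-specific genes. The median of all tested genes rose to 0.26 and 0.74 under these scalings, in the same order. The share of all tested genes lower in every AMH library was not computed under them.

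**Figure D2:**
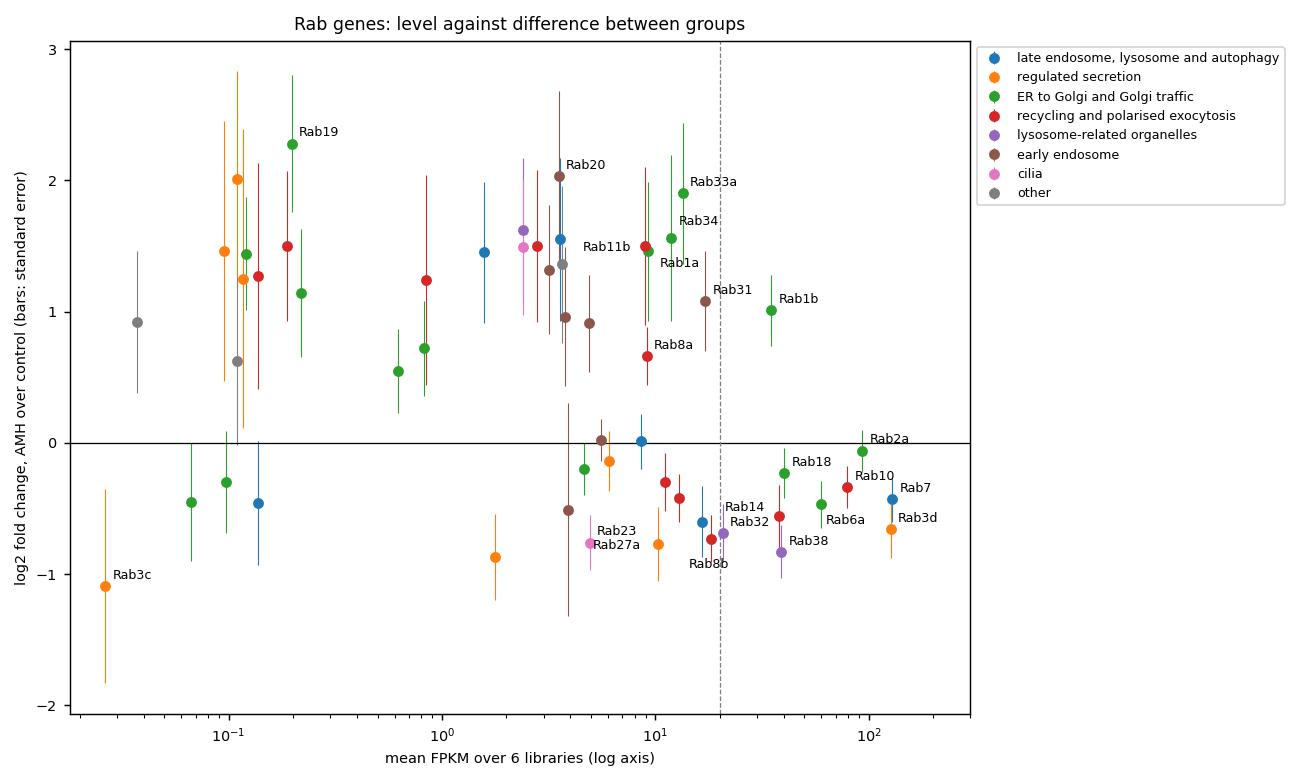
Points are the 55 tested Rab genes, with mean FPKM over 6 libraries on a log axis, the log2 fold change of AMH over control on the vertical axis, bars for its standard error and colours for the role of the gene. To the right of the dashed line at 20 FPKM, Rab1b at 1.01 is the single point above 0.

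The make-up of the Rab transcript pool can be read without any scaling between libraries, as shares of the summed FPKM of the 58 members. The 4 most abundant members, Rab7, Rab3d, Rab2a and Rab10, held 52.9%, 54.6% and 50.7% of the pool in the controls, in the order of their replicate numbers, and 42.4%, 43.8% and 49.05% in the AMH libraries. The groups did not overlap, although AMH 3 came close to control 3. Members of regulated secretion held 19.35%, 21.0% and 17.4% in controls and 12.3%, 13.4% and 15.8% in AMH libraries. Most of that was Rab3d alone, at 17.0%, 18.3% and 15.4% in controls and 10.2%, 11.2% and 14.4% in AMH libraries. Early endosome members held 2.80%, 2.40% and 4.60% in controls and 7.17%, 6.99% and 5.65% in AMH libraries. Those of the ER and Golgi held 24.6% to 30.3% in controls and 33.1% to 36.3% in AMH libraries. Shares of the recycling members, at 20.5% to 22.2% and 19.95% to 20.5%, met between control 3 and AMH 3.

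Members of regulated secretion carry vesicles and granules to a stimulated release. Rab3d, which sits on secretory granules (chromosome 9, 21907491 to 21918192, GRCm38), had 691, 728 and 623 CPM in controls and 346, 379 and 563 CPM in AMH libraries, each in the order of the replicate numbers, as for all members below. The groups did not overlap, with AMH 3 near control 3, and the log2 fold change was -0.66 ± 0.22 (SE, edgeR adjusted p = 0.116). Scaled to the oocyte-specific genes it was 0.02. Rab27a, a Rab of granules and lysosome-related organelles (chromosome 9, 73044854 to 73097629), had 55.1, 59.7 and 41.6 CPM in controls and 31.8, 39.3 and 20.8 CPM in AMH libraries. Here AMH 3 was the lowest of all libraries, and the log2 fold change was -0.77 ± 0.28 (edgeR adjusted p = 0.118). Rab3a, known from synaptic vesicles and from cortical granule release, had 13.85 to 15.9 CPM in controls and 11.4 to 15.9 CPM in AMH libraries, with overlap and a log2 fold change of -0.14 ± 0.23. Rab3b, a close paralog, had 8.43 ± 2.56 CPM in controls against 4.63 ± 1.12 with AMH (SD, n = 3 per group) and was lower in every AMH library. Of the 8 members of this group 3 had positive and 5 negative values, with a median of -0.40 that became 0.37 when scaled to the oocyte-specific genes.

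Rab38 and Rab32, paired Rabs of melanosomes and other lysosome-related organelles, had lower values in AMH libraries. Rab38 (chromosome 7, 88430273 to 88491572) had 82.7, 96.8 and 65.0 CPM in controls and 40.9, 47.2 and 49.2 CPM in AMH libraries. The groups did not overlap, and its log2 fold change was -0.83 ± 0.20 (edgeR adjusted p = 0.116). Rab32 had 70.3, 67.3 and 48.1 CPM in controls and 33.4, 36.4 and 45.7 CPM in AMH libraries, so control 3 and AMH 3 nearly met (log2 fold change -0.69 ± 0.22). Rab29, which also serves lysosomes, went the other way at low levels, with 1.29, 0.857 and 3.19 CPM in controls and 7.57, 4.89 and 3.97 CPM in AMH libraries (1.62 ± 0.55, and 2.34 without control 3).

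The 11 tested members of recycling and polarised exocytosis were mixed, 6 positive and 5 negative, with a median of 0.66. Rab14, which moves cargo between endosomes and the Golgi, had 684, 621 and 615 CPM in controls and 340, 375 and 587 CPM in AMH libraries. AMH 3 was thus just under the controls, and the log2 fold change of -0.56 ± 0.24 was -0.87 without AMH 3. Rab10, an exocytic Rab known from glucose transporter delivery, had 298 to 344 CPM in controls and 236 to 285 CPM in AMH libraries (-0.34 ± 0.16). Rab35, which acts in endosomal recycling and cytokinesis, had 37.7 to 47.3 CPM and 28.6 to 35.9 CPM (-0.42 ± 0.18). Rab11b, a Rab of recycling endosomes (chromosome 17, 33742484 to 33760530), had the opposite order, with 25.2, 8.85 and 54.0 CPM in controls and 104, 78.6 and 66.3 CPM in AMH libraries. Every AMH library was above every control, and controls spread widely, with the lowest value in control 2. The fitted AMH level was 2.83-fold that of control (edgeR adjusted p = 0.127), and without control 3 the log2 fold change was 2.27. A processed pseudogene, Rab11b-ps2, had 5.20 CPM on average, and reads may be split between it and Rab11b.

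The paralogs Rab8a and Rab8b, both of which direct vesicles to the plasma membrane and the cilium, stood on opposite sides. Rab8a (chromosome 8, 72161200 to 72183904) had 30.1, 30.8 and 41.6 CPM in controls and 65.3, 52.8 and 44.5 CPM in AMH libraries, a log2 fold change of 0.66 ± 0.22 (edgeR adjusted p = 0.116). Rab8b (chromosome 9, 66843664 to 66919687) had 121, 113 and 102 CPM in controls and 55.3, 74.5 and 72.5 CPM in AMH libraries, a log2 fold change of -0.73 ± 0.18 (edgeR adjusted p = 0.116). Neither gene's groups overlapped. Scaled to the oocyte-specific genes, Rab8b had 0.01. Within a library, where scaling cancels, the FPKM ratio of Rab8a to Rab8b was 0.253, 0.277 and 0.413 in controls and 1.195, 0.718 and 0.621 in AMH libraries.

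Rab33a and Rab33b, both Golgi Rabs, also had log2 fold changes of opposite sign, as did Rab6a and Rab6b (-0.47 and 1.14) and Rab7 and Rab7b (-0.43 and 1.45) among others. Rab33a (chromosome X, 48519285 to 48530232) had 6.42, 2.57 and 11.3 CPM in controls and 30.4, 26.8 and 18.7 CPM in AMH libraries, a log2 fold change of 1.90 ± 0.54 (edgeR adjusted p = 0.116). Rab33b had 18.0 to 18.5 CPM in controls and 14.2 to 17.7 CPM in AMH libraries (-0.20 ± 0.20). The ratio of Rab33a to Rab33b was 1.07, 0.426 and 1.92 in controls and 6.53, 5.16 and 3.23 in AMH libraries. The promoters of the Rab8 and Rab33 pairs are shown because these were the 2 pairs whose ratio was higher in every AMH library than in any control. The RefSeq start lies 18 bases from the table's start for Rab8b and 46 for Rab33b, and is the same for the others. The windows run from 250 bases before to 50 after a transcription start in RefSeq (GRCm38.p6). Capitals mark matches, on either strand, to 7 short motifs. The sequence of the CCAAT box is its name, the GC box was searched as GGGCGG and the E-box as CACGTG. The homeodomain core was searched as TAATTA and with its last letter replaced by G, and the cAMP response element as TGACGTCA. The TATA box was searched as TATAAA, and the octamer as ATTTGCAT. Overlaps between motifs were allowed, and the capitals then merge.
Rab8a, chr8:72160950-72161249, plus strand: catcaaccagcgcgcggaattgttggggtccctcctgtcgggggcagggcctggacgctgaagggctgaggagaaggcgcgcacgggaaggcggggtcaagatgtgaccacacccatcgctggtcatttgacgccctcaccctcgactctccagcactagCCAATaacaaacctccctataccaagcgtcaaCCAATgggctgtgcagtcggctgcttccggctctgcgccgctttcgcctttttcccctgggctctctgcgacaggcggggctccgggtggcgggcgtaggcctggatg
Rab8b, chr9:66919656-66919955, minus strand: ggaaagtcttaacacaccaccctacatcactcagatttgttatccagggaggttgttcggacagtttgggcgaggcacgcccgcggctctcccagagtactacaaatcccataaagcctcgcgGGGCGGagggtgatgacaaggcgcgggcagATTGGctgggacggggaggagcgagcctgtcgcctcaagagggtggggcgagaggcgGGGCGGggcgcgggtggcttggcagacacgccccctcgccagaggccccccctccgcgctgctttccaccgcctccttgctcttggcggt
Rab33a, chrX:48519035-48519334, plus strand: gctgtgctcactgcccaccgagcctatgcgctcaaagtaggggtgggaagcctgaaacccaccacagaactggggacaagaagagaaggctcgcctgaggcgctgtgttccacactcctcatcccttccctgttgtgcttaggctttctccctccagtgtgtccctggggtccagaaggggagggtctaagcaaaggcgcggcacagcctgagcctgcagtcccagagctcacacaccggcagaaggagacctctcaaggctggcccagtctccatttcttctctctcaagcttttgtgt
Rab33b, chr3:51483716-51484015, plus strand: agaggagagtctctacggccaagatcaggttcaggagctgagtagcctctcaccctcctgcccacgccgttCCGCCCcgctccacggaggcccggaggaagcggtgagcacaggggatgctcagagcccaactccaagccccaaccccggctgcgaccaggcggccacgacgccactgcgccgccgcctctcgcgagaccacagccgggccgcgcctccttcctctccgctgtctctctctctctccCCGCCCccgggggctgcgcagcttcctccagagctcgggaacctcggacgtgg
Rab8a had 2 CCAAT boxes, 90 and 58 bases before the start, and Rab8b had 2 GC boxes and 1 CCAAT box in reverse orientation. Rab33a had none of these motifs and Rab33b had 2 GC boxes, both in reverse orientation. A window was found for 44 of the 55 tested members. The GC box was in 61.5% of 26 windows of members with a positive log2 fold change, in 83.3% of 18 with a negative one and in 60.7% of 11809 tested protein-coding genes. The CCAAT box was in 13 of the 26, in 38.9% and in 38.7%. The E-box was in 11.5%, 11.1% and 9.73%, the homeodomain core in 3.85%, 5.56% and 7.60%, the cAMP response element in 7.69%, 0.0% and 3.02%, and the TATA box in 0.0%, 16.7% and 7.71%. The octamer was in none of the 44 windows and in 1.46% of all. Median GC content was 61.3%, 63.0% and 60.0%.

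**Figure D3:**
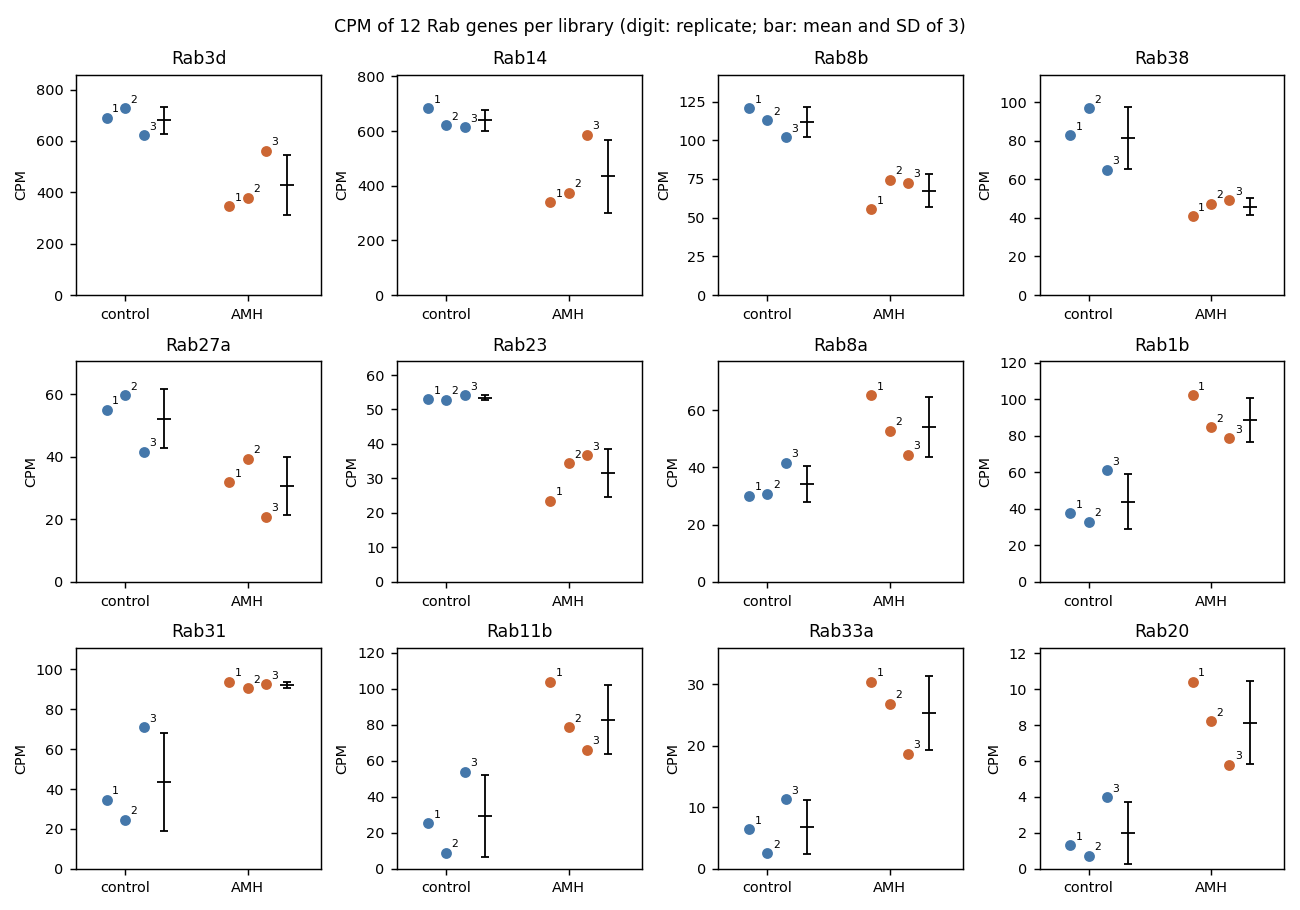
CPM of 12 Rab genes in each library, with blue points for control and orange points for AMH libraries, digits for the replicate and bars for the mean and SD of 3 libraries; axes start at 0. Rab3d, Rab14, Rab8b, Rab38, Rab27a and Rab23 are lower in every AMH library and the other 6 are higher.

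In all, 18 pairs of tested members share a number and have more than 3 counts in every library, and some pairs share a gene. Their FPKM ratios were set side by side within libraries. The groups did not overlap in 7 pairs, with a higher ratio in AMH libraries for Rab8a over Rab8b (2.64-fold) and Rab33a over Rab33b (4.99-fold). The ratio of the first to the second gene was lower in AMH libraries for Rab2a and Rab2b, Rab4a and Rab4b, Rab5a and Rab5b, Rab6a and Rab6b, and Rab7 and Rab7b. In each of these 5 the second gene is the less abundant, as with Rab7b, a Rab of late endosomes and the Golgi, at 4.34, 1.496 and 6.25 CPM in controls and 14.9, 9.36 and 8.67 CPM in AMH libraries. Each of these 7 had p = 0.1 in a two-sided exact permutation test on the log2 ratio, the smallest that 3 against 3 libraries can give, and 0.257 after Benjamini-Hochberg adjustment over the 18 pairs. The other 11 pairs overlapped. Of the 7, control 3 and AMH 3 nearly met for Rab2a over Rab2b, at ratios of 157.9 and 154.1. They also nearly met for Rab5a over Rab5b, at 1.595 and 1.567. The share of non-overlapping ratios among pairs of other genes was not computed, so the 7 cannot be read as particular to Rab genes. Among all single tested genes, 26.9% were higher and 23.3% lower in every AMH library than in any control. Rab2b shares 195 exon bases with Tox4 on the opposite strand, and Rab6a shares 708 with Mrpl48. Another gene model, Gm43766, lies opposite 59.3% of the exon bases of Rab2b. Reads at those bases may belong to either gene if strand was not used. Rab4b had only 7 to 47 counts per library, and Gm21983 covers 65.0% of its exon bases on the same strand.

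**Figure D4:**
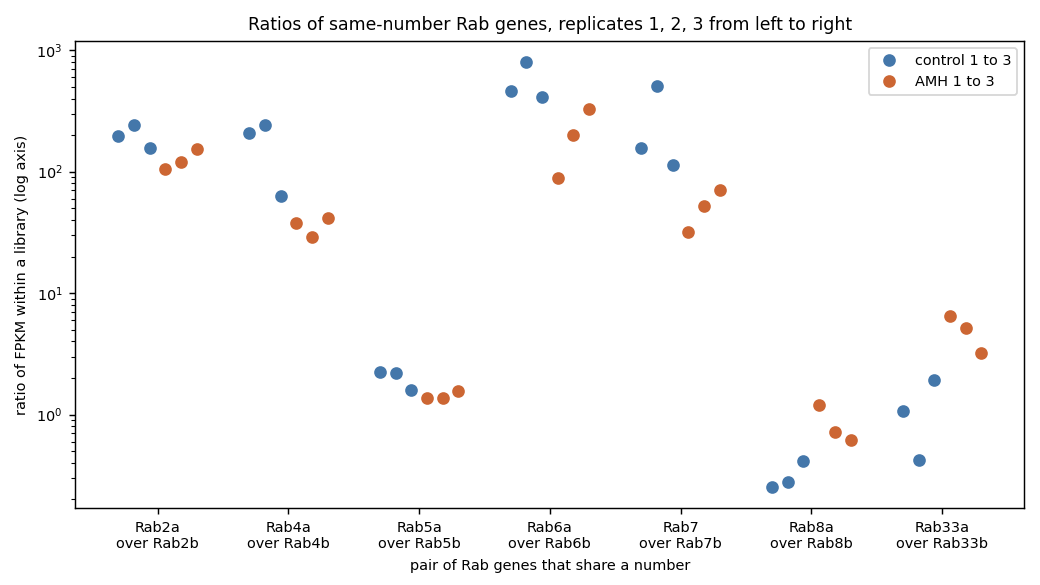
FPKM ratio of 2 Rab genes that share a number, in each library and on a log axis, for the 7 pairs whose groups did not overlap; blue points are controls and orange points AMH libraries, replicates 1, 2 and 3 from left to right. For Rab8a over Rab8b the controls lie at 0.253 to 0.413 and the AMH libraries at 0.621 to 1.195.

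Of the ER and Golgi members, the pair that carries vesicles from the ER to the Golgi had higher AMH values. Rab1b (chromosome 19, 5099207 to 5106996) had 37.6, 33.0 and 61.1 CPM in controls and 102, 84.8 and 78.8 CPM in AMH libraries. Its log2 fold change was 1.01 ± 0.27 (edgeR adjusted p = 0.116). Rab1a had 16.8, 7.48 and 34.1 CPM in controls and 61.8, 59.2 and 39.2 CPM in AMH libraries, 1.46 ± 0.53 on the log2 scale and 2.13 without control 3. For both, control 3 was the highest control and AMH 3 the lowest AMH library. Rab2a, of the same early pathway, had 190 to 222 CPM and 184 to 228 CPM and overlapped (-0.06 ± 0.16), and this value was 0.21 with library size alone and 0.66 scaled to the oocyte-specific genes. Rab6a, which acts at the Golgi, had 268 to 269 CPM in the 3 controls and 165.5, 180 and 235 CPM in AMH libraries (-0.47 ± 0.18, and 0.23 scaled to the oocyte-specific genes). Rab43, a Golgi Rab of low level, had 0.368 ± 0.167 CPM in controls and 1.00 ± 0.142 CPM with AMH, and another gene model, Gm45140, covers 75.4% of its exon bases on the same strand. Of 15 tested ER and Golgi members 9 were positive and 6 negative, with a median of 0.72. In this group 8 were higher in every AMH library and 2 were lower in every one, where the shares over all tested genes were 26.9% and 23.3%.

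The early endosome members mostly had higher AMH values, 6 of 7 being positive with a median of 0.96. Rab5a, which drives fusion of early endosomes, had 19.3, 10.1 and 26.2 CPM in controls and 41.0, 36.8 and 26.7 CPM in AMH libraries, so that control 3 and AMH 3 nearly met (0.91 ± 0.37). Rab5b had 6.84, 3.63 and 13.1 CPM in controls and 23.8, 21.3 and 13.6 CPM in AMH libraries, the same order (1.32 ± 0.49). Rab5c had 5.69, 8.04 and 3.61 CPM in controls and 9.77, 18.7 and 5.20 CPM in AMH libraries, and its groups overlapped (0.96 ± 0.53). Rab31, a Rab of the trans-Golgi and endosomes, had 34.7, 24.5 and 71.2 CPM in controls and 93.8, 90.5 and 92.5 CPM in AMH libraries (1.08 ± 0.38, and 1.63 without control 3), and AMH libraries were close to each other. Rab20, known from phagosome maturation, had 1.30, 0.717 and 3.97 CPM in controls and 10.4, 8.22 and 5.80 CPM in AMH libraries, 2.03 ± 0.65 on the log2 scale and 3.00 without control 3. Rab22a, an endosomal Rab, had 38.9 to 43.1 CPM in controls and 37.9 to 45.6 CPM in AMH libraries (0.02 ± 0.16).

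Rab21, an early endosome Rab of integrin traffic, is named after its values were seen. It had 16.4 and 17.0 CPM in controls 1 and 2 but 39.2 in control 3, and 9.27 and 4.06 CPM in AMH 1 and 2 but 37.7 in AMH 3. Its 2 high libraries, control 3 and AMH 3, are also the pair closest to each other across all genes, and its groups overlapped (-0.51 ± 0.81).

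Of the 6 late endosome and autophagy members 3 were positive and 3 negative, with a median of -0.21. Rab7, which directs fusion with lysosomes (chromosome 6, 87999106 to 88045270), had 380, 424 and 398 CPM in controls and 269, 277 and 348 CPM in AMH libraries. The groups did not overlap and the log2 fold change was -0.43 ± 0.17 (edgeR adjusted p = 0.123), or 0.29 scaled to the oocyte-specific genes. A processed pseudogene, Rab7-ps1, had 11.1 CPM on average. Rab12, which sends receptors to lysosomes, had 60.9 to 66.7 CPM in controls and 47.9, 25.7 and 51.3 CPM in AMH libraries (-0.60 ± 0.27). Rab24, an autophagy-linked Rab named after its values were seen, had 2.65, 1.23 and 7.42 CPM in controls and 11.5, 11.1 and 10.7 CPM in AMH libraries, but 62.4% of its exon bases lie opposite exons of Prelid1, at 108 CPM on average.

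The cilium-related members went in opposite directions. Rab23, which restrains Hedgehog signalling (chromosome 1, 33719887 to 33742564), had 53.0, 52.9 and 54.2 CPM in controls and 23.5, 34.4 and 36.7 CPM in AMH libraries. Controls were close to each other and all above the AMH libraries, with a log2 fold change of -0.76 ± 0.21 (edgeR adjusted p = 0.116). Rab28, known from photoreceptor cilia, had 5.80, 2.35 and 9.40 CPM in controls and 21.3, 16.4 and 11.7 CPM in AMH libraries (1.49 ± 0.52). Among the remaining members, Rab40c, which carries a SOCS box for ubiquitin ligases, had 4.98, 2.37 and 12.3 CPM in controls and 20.3, 18.7 and 11.5 CPM in AMH libraries, with overlap between control 3 and AMH 3 (1.36 ± 0.60, and 2.19 without control 3). Rab42 stayed at or below 0.320 CPM and was not tested.

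Members with higher AMH values also varied among the controls alone. Of the 32 with a positive log2 fold change, 22 were lowest in control 2 and highest in control 3 among controls, the order of the cumulus and granulosa sum (403, 252 and 2358 CPM in controls 1, 2 and 3). The same order held in 63.5% of all tested genes with a positive log2 fold change, so the members' share is near that of other genes. Among the 23 members with a negative value it held in 2, Rab6a and Rab23, against 6.55% of all such genes. The part of these cells in the members' values was not tested.

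Proteins that handle Rabs were described by 4 lists of 121 genes, all of them tested, and 0 passed edgeR's test. The median log2 fold change over all 121 was -0.01, with 60 above and 61 below 0, and at an unadjusted p under 0.05 there were 28 higher and 32 lower, where the shares over all tested genes were 20.2% and 17.3%. Of 7 genes for prenylation and GDP dissociation, 5 were positive with a median of 0.70. The 5 include Gdi2, at 139.7 CPM in controls and 139.8 CPM in AMH libraries on average (log2 fold change 0.0). In this list 3 genes were higher and 1, Rabif (-0.20), was lower in every AMH library. The shares over all tested genes were 26.9% and 23.3%. Rabggta and Rabggtb are the subunits of the enzyme that attaches the prenyl groups. Rabggta had 11.9, 7.68 and 13.4 CPM in controls and 27.7, 20.6 and 16.1 CPM in AMH libraries. Rabggtb had 8.21, 4.85 and 8.21 CPM in controls and 14.9, 18.3 and 11.5 CPM in AMH libraries. Both were higher in every AMH library.

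Exchange factors, which load Rabs with GTP, had a median of -0.04 over 35 genes, 16 positive and 19 negative. Rab3il1, an exchange factor of the Rab3 and Rab8 family, had 309, 342 and 291 CPM in controls and 175, 166 and 221 CPM in AMH libraries (-0.75 ± 0.17). Ric1, part of the Rab6 exchange factor, had 222, 219 and 199 CPM in controls and 104, 125 and 153 CPM in AMH libraries (-0.75 ± 0.19). Dennd2d had 0.159 ± 0.0950 CPM in controls and 1.08 ± 0.612 CPM with AMH, and 771 of its exon bases lie opposite exons of Cept1. GTPase-activating proteins had a median of 0.08 over 36 genes, 20 positive and 16 negative. In this list Tbc1d1, which acts on the Rabs of glucose transporter vesicles, had 341 ± 47.3 against 199 ± 36.0 CPM, Tbc1d22b had 234 ± 30.1 against 146 ± 23.9 CPM, and Tbc1d7, a subunit of the TSC complex, had 3.56 ± 0.742 against 7.70 ± 0.638 CPM (control against AMH, SD, n = 3 per group). Effectors had a median of -0.20 over 43 genes, 19 positive and 24 negative. Rims1, a Rab3 effector of exocytic sites, had 121, 127 and 108 CPM in controls and 57.7, 63.5 and 82.0 CPM in AMH libraries (-0.81 ± 0.19). Acap2, a Rab35 effector, had 106 ± 2.21 against 69.6 ± 8.32 CPM, and Rabac1, a prenylated Rab acceptor, had 40.6, 30.8 and 56.7 CPM in controls and 97.8, 87.2 and 75.8 CPM in AMH libraries. For each of these 11 partner genes the groups did not overlap, and the edgeR adjusted p was 0.116. They were picked by smallest p, which favours genes whose groups do not overlap. Of all 121 partner genes, 30 were higher and 39 lower in every AMH library than in any control. The shares over all tested genes were 26.9% and 23.3%. Under the scaling to oocyte-specific genes 107 of the 121 were positive, where the median of all tested genes was 0.74.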

How the data were processed

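Per the labels' protocols, SMART v4 amplification and poly-T beads were used on oocyte RNA. The authors deposited raw counts and FPKM for each gene and library. The submitters' processing notes name DESeq2 1.20.0, featureCounts 1.5.0-p3, HISAT2 2.0.5 and, as builds, mm10 and GRCm38, without roles. The strand setting is not given in the sources used here. Each deposited FPKM value equals the count over gene length and 1 effective size per library, which was 0.924 to 1.18 of the count total.

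The main test was edgeR 4.0.16 (R 4.3.3; robust quasi-likelihood, TMM, default filterByExpr, group alone) over 18868 genes, with Benjamini-Hochberg adjustment at 0.05. CPM use TMM-scaled library sizes. Standard errors come from the F statistic. Alternatives were DESeq2 1.42.0, limma 3.58.1 (voom with and without sample weights, and log2(FPKM + 1) for genes with over 1 FPKM in 3 or more libraries), other scalings and filters, a replicate block and left-out libraries. The fit was tested on simulated data of 18340 genes for AMH against control: of 62 genes changed 2-fold 3.23% were recovered, of 70 changed 4-fold 51.4% and of 68 changed 8-fold 82.4%, and 11 of its 105 calls were false. No 2 libraries were duplicates (chi-square per degree of freedom 55.9 or more, lowest for control 3 with AMH 3).

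The members, lists and alternatives were chosen with earlier results of these data known. Named members were those past the threshold, the 2 of highest FPKM per role, the 6 of smallest p in each direction with at least 1 CPM in the higher group, the highest and lowest by FPKM, and Rab1a, Rab3a, Rab5a, Rab5b, Rab5c, Rab6a, Rab7, Rab8a, Rab10, Rab11b, Rab14, Rab27a and Rab35; of partners, those past the threshold or else the 3 of smallest p per list. A gene that this rule picks is not reported here. Outside the rule, Rab2b, Rab3b, Rab3c, Rab4a, Rab4b, Rab6b, Rab7b, Rab17, Rab19, Rab21, Rab24, Rab25, Rab33b and Rab37 were named after their values were seen. So were the partners Gdi2 and Rabif. All 58 members are in GENCODE M21, 56 with identical start and end. Promoters are RefSeq's (GRCm38.p6), taking the start nearest the gene's own; 11 members have none there: Rab2a, Rab4a, Rab7b, Rab18, Rab26, Rab27b, Rab30, Rab36, Rab37, Rab38 and Rab44. The SDs and standard errors given include the spread between libraries.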

Additional observations from a re-analysis of the deposited data

How the results depend on the processing

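Calls depended on the test and on control 3 and AMH 3. Members called higher and lower numbered 0 and 0 with the main test, 15 and 3 with DESeq2, 26 and 17 with limma-voom and sample quality weights, 21 and 11 without control 3 and AMH 3 together, and 0 to 22 and 0 to 5 when 1 library was left out (22 and 5 without control 3, 0 and 4 without AMH 3). All genes called were 0, 4535, 14130, 9885 and 0 to 7513 in the same order; all 18 members called by DESeq2 were among the 27 called without control 3. At an unadjusted p under 0.05 the members numbered 19 higher and 9 lower, with 4 to 23 and 3 to 16 when 1 library was left out; the lower ones were 18 with sample quality weights, 4 with library size only, 0 with oocyte-list scaling, 4 with the replicate block and 14 without control 3 and AMH 3. Nothing in the labels says that replicate numbers pair the libraries. Libraries of equal number had correlations of deviations from their group means of 0.0596, -0.103 and -0.250. These cannot exclude pairing, because the deviations of each group are bound to sum to 0. With the replicate block 0 members were called and 16 were higher at an unadjusted p under 0.05. The members' median of 0.66 was 0.47 to 0.78 with 1 library left out, 0.95 with library size only, 1.43 with oocyte-list scaling, 1.02 without control 3 and AMH 3, 0.02 with at least 5 CPM in 3 libraries, where 38 members are tested, and -0.01 with limma on FPKM, also over 38. Members lower in every AMH library numbered 14 with TMM, 7 with library size only and 0 with oocyte-list scaling. With 1 library left out they numbered 14 to 18, and members higher in every AMH library 21 to 26. These alternative settings were chosen after seeing the data. Leaving out a library makes non-overlap easier for any gene. For these counts and those at an unadjusted p, shares of all tested genes were computed only with TMM and all 6 libraries. The ranges can therefore not be read as particular to Rab genes. With oocyte-list scaling the log2 fold change turned positive for Rab2a (0.66), Rab3a (0.65), Rab10 (0.39), Rab35 (0.31), Rab7 (0.29), Rab6a (0.23), Acap2 (0.13), Rab14 (0.11), Rab12 (0.09), Rab27a (0.08), Tbc1d22b (0.06), Rab32 (0.04), Rab3d (0.02) and Rab8b (0.01), and with library size only for Rab2a (0.21) and Rab3a (0.15). Rab22a was -0.09 with sample quality weights, -0.21 with upper-quartile scaling, -0.01 without control 3 and AMH 3, and -0.05 to 0.08 with 1 library left out (-0.03 without control 3, -0.05 without AMH 1 and -0.02 without AMH 3). The median of all tested genes was itself 0.26 with library size only and 0.74 with oocyte-list scaling. The cause of these sign changes was not tested. Over 41 named genes, 573 values under the alternatives kept direction and side of the threshold, 138 passed it and 22 changed sign.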

Other observations

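Rab members typical of epithelia were at low levels. Rab25, an epithelial recycling Rab, had 0.636, 1.56 and 0.394 CPM in controls 1, 2 and 3 and 4.24, 0.968 and 0.915 CPM in AMH 1, 2 and 3. Rab17, another, had at most 0.0310 CPM in controls and 0.407, 0 and 0.0458 CPM in AMH libraries. Both were highest in AMH 1, the library with the highest oviduct and cilia sum (575 CPM) and red blood cell sum (357 CPM), and so was Rab37, a Rab of secretory granules, at 1.91 CPM against 0.0758 to 0.563 CPM in the other libraries. The part of other cells in these values was not tested.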
